A study of Mus musculus with 36 samples.

Results

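The 7 genes described here, Pck1, G6pc, Fbp1, Fbp2, Pcx, Hk1 and Hk2, act at the ends of the path between glucose and pyruvate. They were chosen by symbol, which was matched to the Ensembl identifier used in the count tables, and 7 of 7 were found in each of the 6 tables (51912 to 55487 genes per table). The study fed wild-type C57BL/6 male mice (C57BL/6N in the study's methods) from 6 weeks of age for 2 weeks on a high-fat diet (HFD, 60% of kcal from fat) or a low-fat diet (LFD, 10% of kcal from fat). Cauda spermatozoa were taken from such males (3 libraries per diet), and morulae, embryos made by in vitro fertilization with their sperm, were picked after 72 h of culture (3 libraries per diet). Round spermatids, the haploid germ cells that precede spermatozoa, were purified on a density gradient from the testes of males of both diets (6 libraries). Liver, epididymal white fat (eWAT) and gastrocnemius muscle came from chow-fed male offspring of HFD fathers, glucose tolerant or intolerant (6 libraries per tissue), and neither their age nor their feeding state at collection is given in the labels. In the tables of these last 4 cell or tissue types the column names do not tell the diet or the tolerance class of a library, so diet was compared in sperm and in morulae only, and elsewhere the 6 libraries of a tissue are described as 1 group. The sperm, round spermatids and morulae were sequenced from Nextera libraries, and the offspring tissues from QuantSeq 3′ libraries, so levels in the 2 kinds of library are set side by side and not divided by each other. Where an order or overlap of levels crosses the 2 kinds, it is one of CPM values only, and kit and tissue cannot be told apart in it.

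Gluconeogenesis makes glucose from lactate, amino acids and glycerol, and in mammals the liver and the kidney release it to the blood. Pyruvate carboxylase (Pcx) makes oxaloacetate in the mitochondria, phosphoenolpyruvate carboxykinase (Pck1) turns oxaloacetate into phosphoenolpyruvate, fructose-1,6-bisphosphatase (Fbp1, the liver form, and Fbp2, the muscle form) removes a phosphate from fructose-1,6-bisphosphate, and glucose-6-phosphatase (G6pc) frees glucose. Hexokinases run the last step the other way and trap glucose in the cell as glucose-6-phosphate, with Hk1 as the form of brain, red cells and germ cells and Hk2 as the insulin-regulated form of muscle and fat. Pck1 and Pcx also serve adipocytes, which make the glycerol of their triglycerides from pyruvate.

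Each level is given in CPM, the count divided by the library total and scaled to 1000000 counts, as mean ± SD over 6 libraries unless stated otherwise, and a library is named by its total count. Totals were 2560219 to 4062321 counts in sperm, 20138842 to 31056066 in round spermatids, 11471251 to 12153141 in morulae, 2036237 to 2552454 in liver, 1338149 to 4055537 in eWAT and 369772 to 2749920 in gastrocnemius, and where a library shows no count its true level may still reach the equivalent of 3 counts, at most 8.11 CPM in the shallowest gastrocnemius library and 0.149 CPM in round spermatids. Genes encoded in mitochondrial DNA took 43.5 to 84.3% of the sperm counts, more on HFD (78.1 to 84.3%) than on LFD (43.5 to 64.7%), against 1.96 to 2.38% in round spermatids. The markers of each labelled tissue were present, as 6 liver markers summed to 45307 to 66563 CPM in liver, 6 adipocyte markers to 31770 to 44677 in eWAT, 6 muscle markers to 42091 to 88598 in gastrocnemius, 6 spermatid markers to 6417 to 8414 in round spermatids and 6 embryo markers to 653 to 785 in morulae. Sperm held 6 spermatozoal markers at 4268 to 10796 CPM and also 7 markers of the epididymal epithelium at 1667 to 25827 CPM. The same 6 spermatozoal markers summed to 8904 to 11628 CPM in round spermatids, so their sum does not set sperm apart from spermatids. The spermatid and spermatozoal lists share Prm1, Prm2 and Tnp2. One eWAT library (3512177 counts) stood apart, with spermatozoal markers at 69.2 CPM (0 to 2.42 CPM in the other 5) and the lowest adipocyte sum, and the eWAT fold changes that it moved most are given with and without it.

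Fbp1 and Fbp2 are neighbours on the minus strand of chromosome 13 (GRCm38). Fbp1 (ENSMUSG00000069805) spans chr13:62864753-62888282 and Fbp2 (ENSMUSG00000021456) chr13:62836877-62858422, with 6330 bases and 0 annotated genes between them. Where one was high the other was mostly near 0, as given below, so the bases upstream of both are shown, with those of Pck1 (ENSMUSG00000027513, plus strand, chr2:173153048-173159273), whose level spread widely in liver. The stretches are 250 bases of Fbp1 (chr13:62888283-62888532), 228 of Fbp2 (chr13:62858423-62858650) and 225 of Pck1 (chr2:173152823-173153047), taken from the RefSeq promoter table on GRCm38.p6 and ended where the gene begins in the count tables. Capitals mark matches on either strand to the CRE core (TGACG, a part of the site bound by the cAMP-responsive factor CREB) and the E-box (CACGTG).
Fbp1: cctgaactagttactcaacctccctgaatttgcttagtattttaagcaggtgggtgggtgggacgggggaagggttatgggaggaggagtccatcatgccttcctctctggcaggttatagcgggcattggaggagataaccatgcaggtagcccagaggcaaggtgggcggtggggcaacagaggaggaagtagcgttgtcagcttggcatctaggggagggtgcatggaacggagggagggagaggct
Fbp2: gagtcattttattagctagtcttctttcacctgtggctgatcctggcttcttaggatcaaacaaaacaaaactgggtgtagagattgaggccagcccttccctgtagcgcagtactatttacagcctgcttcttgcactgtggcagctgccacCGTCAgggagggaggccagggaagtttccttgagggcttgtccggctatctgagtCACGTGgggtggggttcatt
Pck1: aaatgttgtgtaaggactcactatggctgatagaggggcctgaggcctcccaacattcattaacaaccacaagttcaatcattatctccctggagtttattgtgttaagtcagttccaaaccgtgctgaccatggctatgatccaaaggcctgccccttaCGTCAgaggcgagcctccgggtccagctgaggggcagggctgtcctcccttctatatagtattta
Fbp1 held no match, Fbp2 held a CRE core 97 to 93 bases before its RefSeq start and an E-box 42 to 37 bases before it, and Pck1 held a CRE core 90 to 86 bases before its start, with no overlap between these matches. Among 32851 promoters of the same table, 17.8% held a CRE core in the 250 bases before the start and 6.02% an E-box. The full CRE (TGACGTCA, 1.55% of promoters, which contains the core) and the FoxO site (GTAAACA, 3.17%) matched in none of the 7 genes, the TATA box (TATAAA, 12.4%) matched in G6pc 29 to 24 bases before its start, the CRE core also in Hk2 (50 to 46 bases before its start) and the E-box also in Pcx (248 to 243 bases before its start). These matches describe letters only.

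Pck1 was a gene of liver and fat. In liver it was lowest at 624.2 CPM, had a median of 2437 and reached 3564 (2229 ± 1209 CPM, SD, n = 6), and in eWAT it ran from 870 through a median of 1821 to 2578 (1706 ± 616 CPM, SD, n = 6). The ranges of liver and eWAT overlapped. Gastrocnemius libraries held 1.82 to 52.4 CPM (median 6.00), far below both tissues. In sperm 5 counts came from 1 of 6 libraries, in round spermatids 14 counts from 6 and in morulae 2 counts from 1, so that Pck1 lay near the limit of detection in sperm, round spermatids and morulae.
G6pc, whose product is the last step before glucose leaves the hepatocyte, was a liver gene. It measured 400 CPM at the lowest, 719 at the median and 981 at the highest in liver (705 ± 208 CPM, SD, n = 6). The next tissue, eWAT, held 3.82 ± 4.16 CPM (SD, n = 6) and gastrocnemius 1.66 ± 0.92 CPM (SD, n = 6), which did not differ beyond their spread, and G6pc had 1 count in sperm, 16 in round spermatids and 1 in morulae. G6pc (ENSMUSG00000078650) lies on the plus strand at chr11:101367561-101377903. The eWAT library with the most G6pc (3757456 counts, 11.98 CPM) also had the most Pck1 and the highest sum of liver markers (800 CPM against 83.7 to 435 in the others), and the part of these markers in the result was not tested.

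**Figure D1:**
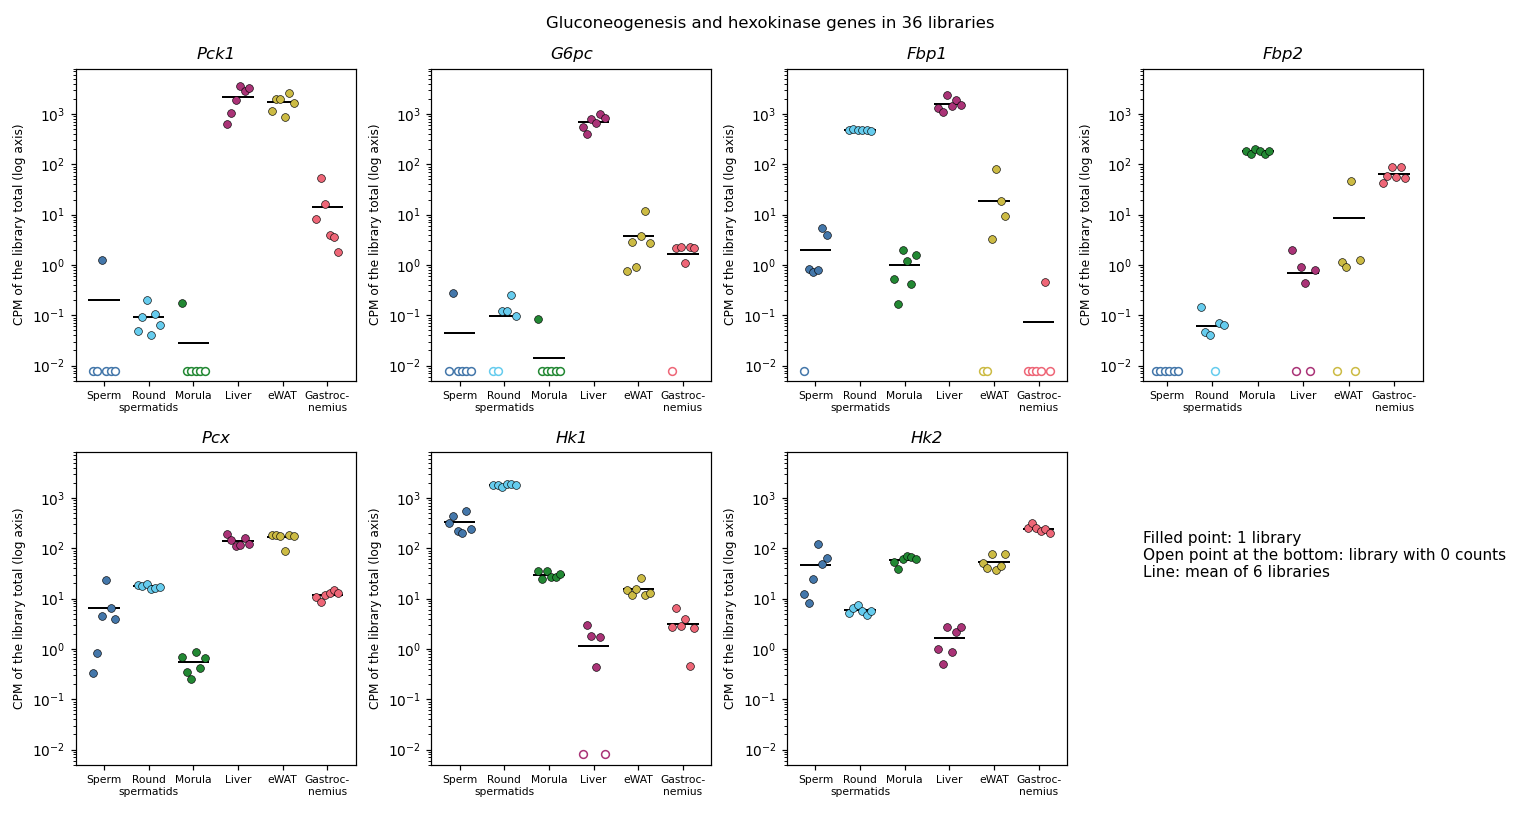
Level of each of the 7 genes in 36 libraries, in CPM of the library total on a log axis; a filled point is 1 library, an open point at the bottom a library with 0 counts, and the line is the mean of 6 libraries. In CPM, Pck1, G6pc and Fbp1 are highest in liver, Fbp2 in morulae, Hk1 in round spermatids and Hk2 in gastrocnemius. Sperm, round spermatids and morulae come from another kit than the offspring tissues, so kit and tissue cannot be told apart in such an order.

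Fbp1 had high levels in 2 cell types with little else in common. Liver libraries ran from 1090 through a median of 1492 to 2345 CPM (1610 ± 447 CPM, SD, n = 6). Round spermatids ran from 469 through 483 to 504 CPM (484 ± 13.1 CPM, SD, n = 6). All other samples were low. Sperm held 1.96 ± 2.21 CPM (SD, n = 6), morulae 0.98 ± 0.72 (SD, n = 6), and gastrocnemius 1 count in 9850922. In eWAT 2 libraries held 0 counts, 3 held 3.33 to 18.9 CPM, and the library of 3512177 counts held 79.4, which is 279 of the 400 Fbp1 counts of that tissue.
Fbp2 was high where Fbp1 was near 0. Morulae ran from 162 through a median of 185 to 198 CPM (180 ± 14.5 CPM, SD, n = 6) and gastrocnemius from 43.3 through 57.1 to 88.4 CPM (64.4 ± 19.0 CPM, SD, n = 6). Liver held 0.68 ± 0.73 CPM (SD, n = 6) and round spermatids 9 counts in 150257984. Sperm held 0 counts in all 6 libraries, which allows up to 0.156 CPM over the group. Of 176 counts in eWAT, 166 came from the library of 3512177 counts (47.3 CPM), while the other 5 libraries held 0 to 1.23 CPM. That library was thus the highest of the 6 in both genes.
Within the sum of both genes, Fbp2 made up 99.5% ± 0.36 of the counts of a morula library (99.0 to 99.9%), 99.9% ± 0.21 in gastrocnemius (99.5 to 100%), 0.013% ± 0.011 in round spermatids (0 to 0.032%) and 0.044% ± 0.054 in liver (0 to 0.146%), each as mean ± SD over 6 libraries. Divided by exon length, the shares were 99.6% in morulae and 0.015% in round spermatids. In eWAT the share ranged from 0 to 100% over the 5 libraries with a count. It was 37.3% in the library of 3512177 counts (exact 95% interval 32.8 to 42.0%), and the other 4 rest on 2 to 71 counts.

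**Figure D2:**
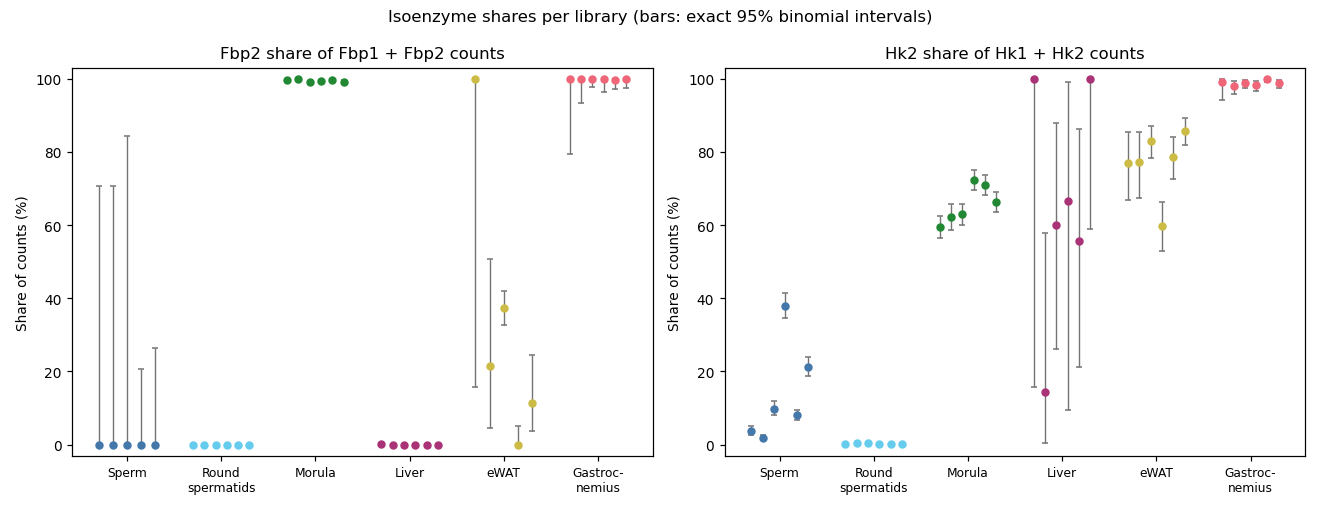
Share of Fbp2 in the counts of Fbp1 and Fbp2 (left) and of Hk2 in the counts of Hk1 and Hk2 (right), in percent, per library; points are libraries with at least 1 count and bars are exact 95% binomial intervals, which cover counting error only. The Fbp2 share lies near 0 in round spermatids and liver and at 99.0% or above in morulae and gastrocnemius.

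Pcx, on the plus strand at chr19:4510472-4621752 (ENSMUSG00000024892), was highest in eWAT (88.5 to 187 CPM, median 180; 166 ± 38.1 CPM, SD, n = 6) and liver (108 to 195 CPM, median 133; 141 ± 32.9 CPM, SD, n = 6), which overlapped. Round spermatids followed with 17.4 ± 1.53 CPM (SD, n = 6) and gastrocnemius with 11.99 ± 2.16 CPM (SD, n = 6), whose ranges (15.2 to 19.3 and 8.55 to 14.9 CPM) did not overlap on library totals. Kit and tissue cannot be told apart in that order. Over nuclear counts those ranges overlapped (15.5 to 19.6 CPM in round spermatids and 14.4 to 22.8 CPM in gastrocnemius) and the order of the means turned (17.8 and 19.1 CPM). Sperm ran from 0.33 to 23.04 CPM, and morulae held 0.54 ± 0.24 CPM (SD, n = 6). Its lowest eWAT value belonged to the library of 3512177 counts, while the other 5 lay between 174 and 187 CPM.
Hk1 was the hexokinase gene of the male germ line. Round spermatids ran from 1640 through a median of 1823 to 1901 CPM (1809 ± 93.2 CPM, SD, n = 6) and sperm from 197 through 275 to 553 CPM (327 ± 141 CPM, SD, n = 6). Over nuclear counts alone, sperm held 1269 ± 709 CPM (SD, n = 6) and round spermatids 1848 ± 95.7. Morulae held 30.0 ± 4.93 CPM (SD, n = 6), eWAT 15.4 ± 4.94, gastrocnemius 3.14 ± 1.96 and liver 1.15 ± 1.19, and the ranges of gastrocnemius and liver overlapped. Hk1 (ENSMUSG00000037012) lies on the minus strand at chr10:62268855-62379908. Spermatogenic cells are known to use germ-cell transcripts of this gene, which counts per gene do not separate, and 157 exon bases of Hk1 are shared with the antisense gene Hk1os (5.72 CPM in round spermatids), whose reads cannot be told apart since the strand setting of the counting is not given in the sources used here.
Hk2 (ENSMUSG00000000628, minus strand, chr6:82725025-82774454) was highest in muscle. Gastrocnemius ran from 201 through a median of 243 to 315 CPM (247 ± 38.6 CPM, SD, n = 6). Morulae (39.4 to 70.2 CPM), eWAT (37.0 to 78.4 CPM) and sperm (8.15 to 120 CPM) overlapped with each other. Round spermatids held 5.86 ± 0.97 CPM (SD, n = 6) and liver 1.65 ± 0.99 CPM (SD, n = 6), below all of these in CPM. Where this order crosses the library kits, kit and tissue cannot be told apart. Of the counts of both hexokinases, Hk2 made up 0.325% ± 0.071 in round spermatids, 13.8% ± 13.6 in sperm, 65.7% ± 5.15 in morulae, 76.9% ± 9.12 in eWAT and 98.8% ± 0.62 in gastrocnemius (SD, n = 6 each). Per exon length the share was 73.2% in morulae and 0.464% in round spermatids. In liver, with 38 counts of the pair in 6 libraries, the share ran from 14.3 to 100%.

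The 3 offspring tissues were compared in 1 edgeR quasi-likelihood fit over 18 libraries, scaled by TMM (a trimmed mean that sets library sizes from the bulk of genes) and adjusted over 10851 genes. Tissue, dissection and table go together here and cannot be told apart, and in bulk tissue fewer cells of a type and less RNA per cell cannot be told apart either. Liver over gastrocnemius called 6 of the 7 genes, 4 higher and 2 lower, where 66.4% of all genes tested were called (34.9% higher and 31.4% lower). G6pc was higher by 8.44 on the log2 scale (SE 0.49, edgeR adjusted p = 4.61e-13), Pck1 by 7.39 (SE 0.69, edgeR adjusted p = 1.66e-09) and Pcx by 3.46 (SE 0.24, edgeR adjusted p = 1.03e-11). Fbp1 passed as well (edgeR adjusted p = 8.08e-10), and against 1 count in muscle its ratio of summed counts was 15970, with an exact 95% counting interval of 2866 to 630827. Hk2 was lower in liver (log2 fold change -7.18, SE 0.32, edgeR adjusted p = 6.75e-15), as was Fbp2 (-6.57, SE 1.03, edgeR adjusted p = 6.06e-06). Hk1 missed the threshold at -1.37 (SE 0.62, edgeR adjusted p = 0.0545; 0.0141 to 0.127 when 1 library was left out, 0.0193 with DESeq2).
Liver over eWAT also called 6 of 7, 4 higher and 2 lower, where 61.6% of all genes were called (28.9% higher and 32.6% lower). G6pc (log2 fold change 8.29, SE 0.44, edgeR adjusted p = 1.81e-13) and Fbp1 (7.34, SE 0.75, edgeR adjusted p = 1.02e-08; 8.60 without the eWAT library of 3512177 counts) were higher in liver, and Hk2 (-4.07, SE 0.32, edgeR adjusted p = 9.01e-11) and Hk1 (-2.80, SE 0.50, edgeR adjusted p = 3.86e-05; -2.67 without that library) were lower. Pck1 (1.28, SE 0.51, edgeR adjusted p = 0.0314) and Pcx (0.69, SE 0.20, edgeR adjusted p = 0.00463) differed less. With library totals in place of TMM the median log2 fold change of all genes was -0.996 (-0.071 with TMM), Pck1 stood at 0.39 (edgeR adjusted p = 0.493) and Pcx at -0.23 (edgeR adjusted p = 0.243), so their order in liver and fat depends on the scale. The Pck1 call was also lost with DESeq2 (adjusted p = 0.0641) and without any of 3 liver libraries (2279651, 2347546 or 2552454 counts) or the eWAT library of 1338149 (adjusted p 0.0599 to 0.0710 from edgeR). Fbp2 missed the threshold (-2.70, SE 1.20, edgeR adjusted p = 0.0550), passed in 6 of 18 fits with 1 library left out, with library totals (-3.67, edgeR adjusted p = 0.00714) and with no filter (-2.73, edgeR adjusted p = 0.000991), stood at -0.17 with limma-voom (adjusted p = 0.898), and turned to 0.73 (edgeR adjusted p = 0.417) without the eWAT library of 3512177 counts.
In eWAT over gastrocnemius, 6 of 7 were called, 4 higher and 2 lower, where 67.4% of all genes were (41.1% higher and 26.3% lower). With library totals the median of all genes moved from 0.35 to 1.32, and the 6 calls were the same in number and direction. Pck1 (6.11, SE 0.65, edgeR adjusted p = 2.62e-08), Pcx (2.78, SE 0.24, edgeR adjusted p = 6.22e-10) and Hk1 (1.44, SE 0.47, edgeR adjusted p = 0.0101) were higher in fat. Hk2 (-3.11, SE 0.23, edgeR adjusted p = 5.63e-11) and Fbp2 (-3.88, SE 0.73, edgeR adjusted p = 6.97e-05; -7.31 without the library of 3512177 counts) were lower. G6pc did not pass (0.15, SE 0.58, edgeR adjusted p = 0.825). Fbp1 passed (edgeR adjusted p = 0.00111), with a ratio of summed counts of 222 against the 1 count of muscle (exact 95% counting interval 39.7 to 8808). Of the 400 eWAT counts behind this ratio 279 are from the library of 3512177 counts, and without it the ratio was 83.9 (exact 95% counting interval 14.8 to 3342; edgeR adjusted p = 0.00118).

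**Figure D3:**
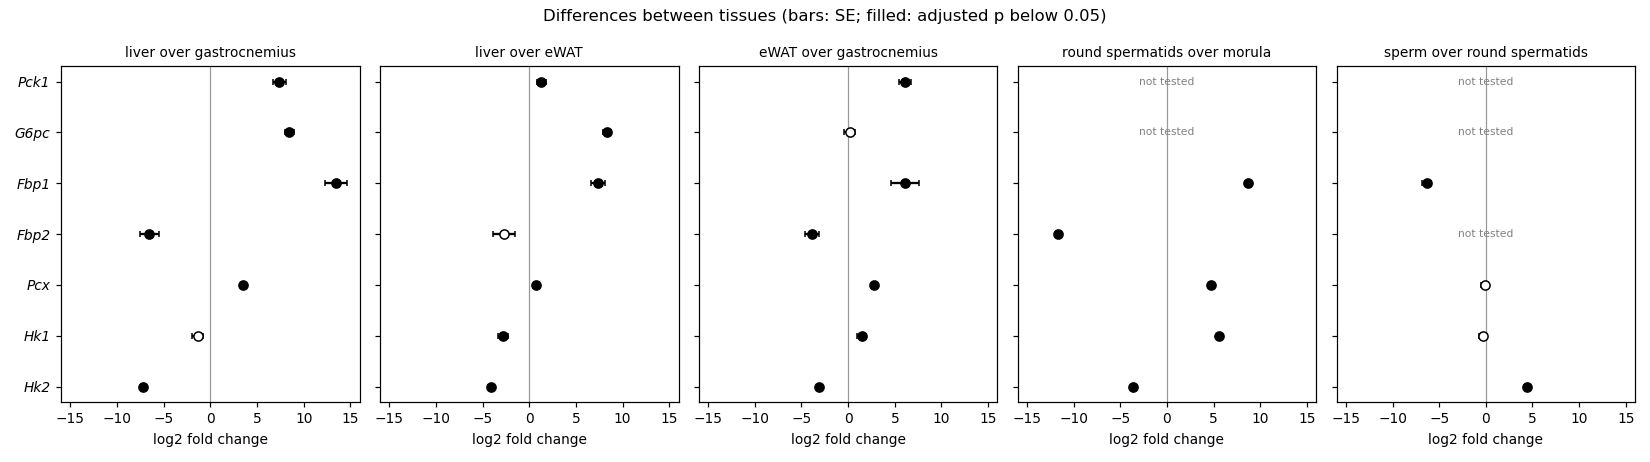
Log2 fold change of each gene in 5 comparisons of tissues, the first tissue over the second; bars are standard errors and filled points have an edgeR adjusted p below 0.05. Fbp1 and Fbp2 lie on opposite sides of 0 in the first 4 comparisons, although Fbp2 in liver over eWAT did not pass and turns to 0.73 without 1 eWAT library, and Hk1 and Hk2 lie on opposite sides with both called in eWAT over gastrocnemius and in round spermatids over morula.

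Round spermatids and morulae, both from Nextera libraries read paired-ended, were compared in 1 edgeR fit over 12 libraries. The study's methods name total (Ribo-minus) libraries for the round spermatids and do not say this of the morulae. Pcx was counted over 4272 exon bases in round spermatids and 4753 in morulae, so the annotations differ too. Cell type, RNA preparation, annotation and table go together here as well and cannot be told apart. All 5 members tested were called, where 92.6% of 20711 genes were called (58.9% higher and 33.7% lower in spermatids). The Fbp pair switched, with Fbp1 higher in spermatids by 8.63 on the log2 scale (SE 0.20, edgeR adjusted p = 1.50e-16) and Fbp2 at -11.69 (SE 0.15, edgeR adjusted p = 3.07e-19). So did the hexokinases, with Hk1 at 5.61 (SE 0.10, edgeR adjusted p = 6.83e-18) and Hk2 at -3.62 (SE 0.14, edgeR adjusted p = 1.82e-13), while Pcx was higher in spermatids by 4.70 (SE 0.19, edgeR adjusted p = 2.08e-13). These values are read against a median log2 fold change of all genes of 1.43 with TMM and 1.76 with library totals, and all 5 kept their direction under both. Pck1 and G6pc did not pass the filter on low counts. G6pc3, the broadly used paralog of G6pc, measured 144 ± 7.24 CPM (SD, n = 6) in spermatids and 7.12 ± 2.78 in morulae (log2 fold change 4.03, SE 0.18, edgeR adjusted p = 1.40e-12).
Sperm were compared with round spermatids in the same way (12 libraries, 18657 genes). By the study's methods the sperm were read single-ended and the round spermatids paired-ended, so stage, read layout and table cannot be told apart in these values. The same holds for the Ribo-minus preparation named for the round spermatids and for the annotation (Pcx had 4637 exon bases in sperm). Of 4 members tested, 1 was called higher and 1 lower, where 74.3% of all genes were called (26.2% higher and 48.1% lower). Fbp1 was lower in sperm (log2 fold change -6.32, SE 0.49, edgeR adjusted p = 5.17e-08), with 0 to 5.49 CPM in the 6 sperm libraries. Hk2 was higher in sperm (4.36, SE 0.28, edgeR adjusted p = 7.13e-09). Hk1 (-0.29, SE 0.45, edgeR adjusted p = 0.568) and Pcx (-0.11, SE 0.39, edgeR adjusted p = 0.802) did not pass. With library totals the median of all genes moved from -0.91 to -2.55, Hk1 to -2.47 (edgeR adjusted p = 2.00e-06) and Hk2 to 2.98 (edgeR adjusted p = 0.000405); the call of Hk1 thus depends on the scale, and it also passed at -0.91 (edgeR adjusted p = 0.0430) without the HFD library of 3679276 counts. Pck2, the mitochondrial paralog of Pck1, was higher in sperm by 5.05 (SE 0.37, edgeR adjusted p = 2.64e-08). Beside these values stand the epididymal markers, at 1667 to 25827 CPM in sperm and 1.07 to 1.94 CPM in round spermatids, whose part in the higher Hk2 and Pck2 was not tested.

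In sperm, the question was whether 2 weeks of HFD moved these genes. On library totals Hk2 measured 12.4, 8.15 and 24.1 CPM in the HFD libraries of 2994295, 3679276 and 4062321 counts and 120, 48.7 and 64.3 CPM in the LFD libraries of 2560219, 2913166 and 3050543. The diets did not overlap for Hk2 on that scale, where 57.7% of 8643 genes tested do not overlap either. Scaled by TMM, Hk2 measured 23.9, 18.4 and 33.7 CPM on HFD and 46.6, 32.1 and 41.2 CPM on LFD in the same order. There the highest HFD library lay above the lowest LFD library, where the diets do not overlap for 20.4% of all genes tested, and the log2 fold change was -0.65 (SE 0.48, edgeR adjusted p = 0.613).
Hk1 measured 602, 994 and 309 TMM-scaled CPM on HFD and 76.4, 364 and 153 on LFD, a log2 fold change of 1.68 (SE 0.64, unadjusted p = 0.0194 and adjusted p = 0.287 from edgeR). The diets overlapped. With library totals Hk1 averaged 324 ± 110 CPM in the HFD libraries and 329 ± 194.4 CPM in the LFD libraries (SD, n = 3 each), and the log2 fold change was -0.024, while the median of all genes went from -0.073 to -1.82. Pcx measured 0.65, 1.84 and 6.19 TMM-scaled CPM on HFD and 8.93, 4.29 and 2.52 on LFD (-0.79, SE 0.97, edgeR adjusted p = 0.787), with overlap. Fbp1 had 6 counts on HFD and 30 on LFD and did not pass the filter, and neither did Pck1, G6pc or Fbp2, with 5, 1 and 0 counts in all.
The edgeR test thus called 0 of 3 members in sperm, where 0% of 8643 genes were called. At an unadjusted p under 0.05 edgeR gave 1 member (Hk1) and 1122 genes. DESeq2 called 0 members and 295 genes, and limma-voom 0 members and 0 genes (1228 at an unadjusted p under 0.05). Library totals called 1 member, Hk2 (log2 fold change -2.38, edgeR adjusted p = 0.0165), with 3266 genes called, 3265 of them lower on HFD, against a median of all genes of -1.82.
The level of Hk2 on library totals rose through the 6 sperm libraries in the same order as the sum of the 7 epididymal markers, which was 1667, 2148 and 3055 CPM in the HFD libraries of 3679276, 2994295 and 4062321 counts and 3414, 9057 and 25827 CPM in the LFD libraries of 2913166, 3050543 and 2560219. Both are shares of the library total, and how many of all genes follow this order was not counted. Scaled by TMM the order did not hold, as Hk2 stood at 33.7 CPM in the HFD library of 4062321 counts and at 32.1 in the LFD library of 2913166. Diet and this marker sum did not cross, so they cannot be told apart in these 6 libraries. The LFD library with the highest sum also had the highest Pcx (23.04 CPM) and the lowest Hk1 (197 CPM). Without it, edgeR called 0 of 4 members tested and Hk2 stood at -0.51 (edgeR adjusted p = 0.929), Hk1 at 1.32 (edgeR adjusted p = 0.722) and Pcx at -0.17 (edgeR adjusted p = 0.991). The mtDNA share and these markers moved with diet, and their part in the values was not tested.

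**Figure D4:**
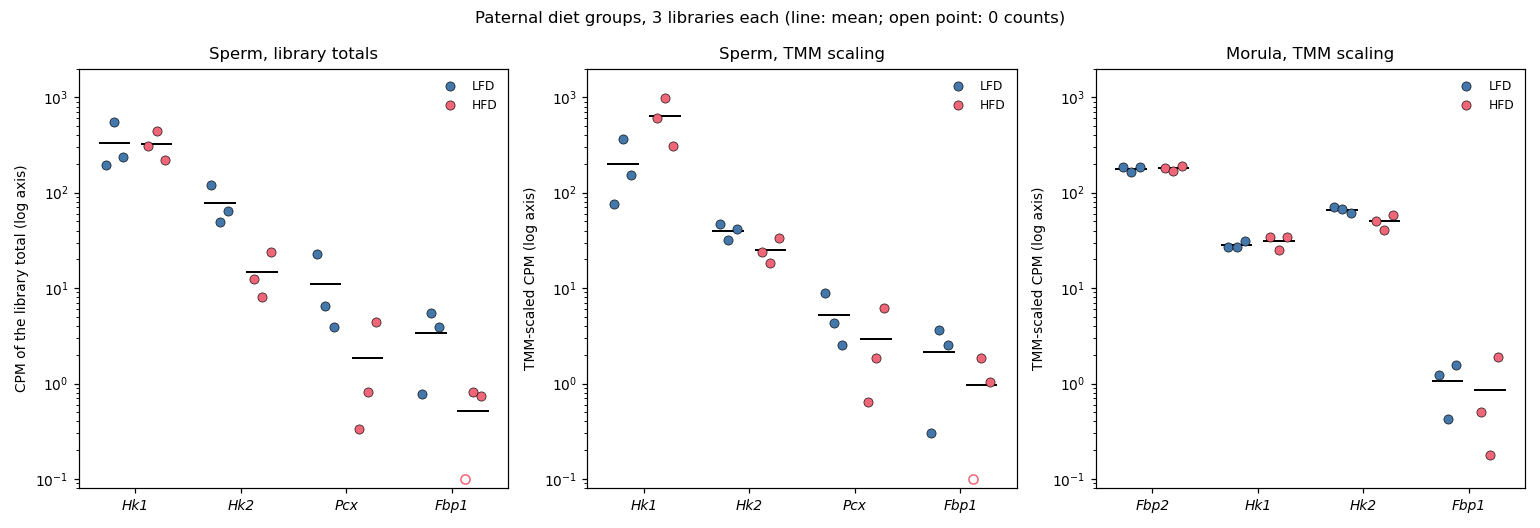
Values of the members with counts in sperm, on library totals (left) and TMM-scaled (middle), and in morulae, TMM-scaled (right), in CPM on log axes; points are libraries, lines means of 3 libraries and open points at the bottom 0 counts. Hk2 is lower in every HFD sperm library on library totals, where the highest HFD value is 24.1 and the lowest LFD value 48.7, and overlaps after TMM scaling; Hk2 in morulae does not overlap.

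**Figure D5:**
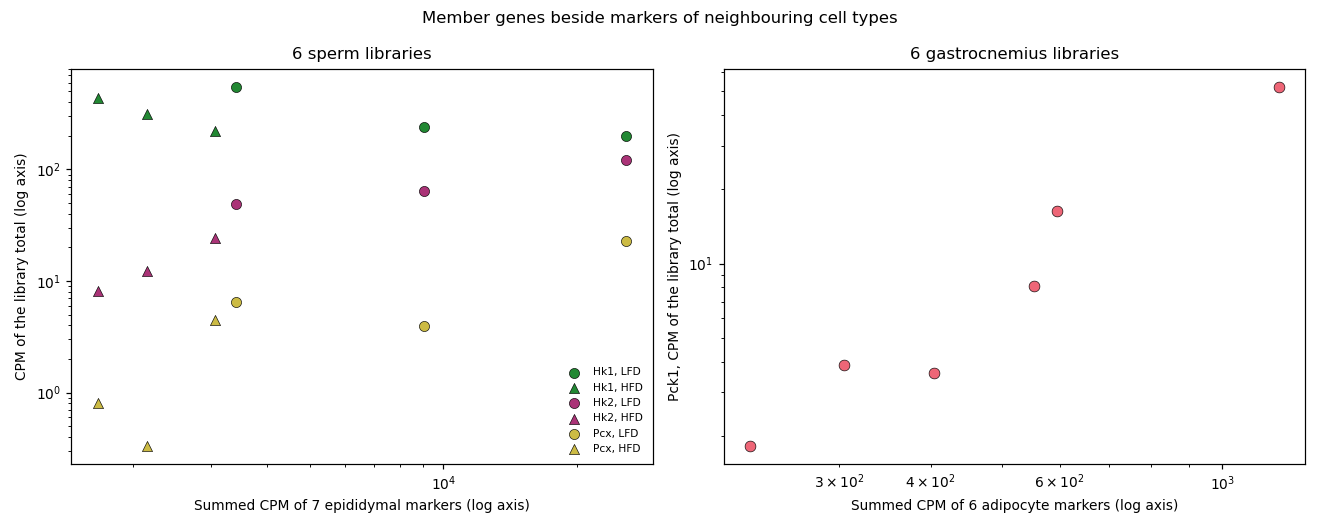
Left, Hk1, Hk2 and Pcx in the 6 sperm libraries against the summed CPM of 7 epididymal markers, with triangles for HFD and circles for LFD; right, Pck1 in the 6 gastrocnemius libraries against the summed CPM of 6 adipocyte markers, all axes logarithmic. On library totals Hk2 climbs from 8.15 to 120 CPM with the epididymal sum, and the 2 muscle libraries with the most Pck1 (16.3 and 52.4 CPM) are those with the highest adipocyte sums.

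In morulae the question was whether the diet of the father moved the same genes in the embryo. Hk2 measured 51.0, 41.0 and 58.3 TMM-scaled CPM in the libraries of HFD fathers (11606215, 11776603 and 12153141 counts) and 71.3, 66.8 and 61.4 in those of LFD fathers (11471251, 11864264 and 12133872 counts). Every HFD library lay below every LFD library, as the groups also failed to overlap for 12.1% of 13447 genes tested. The log2 fold change was -0.41 (SE 0.14, unadjusted p = 0.0106 and adjusted p = 0.688 from edgeR), which fails the adjustment.
Fbp2 measured 183, 170 and 190.6 TMM-scaled CPM on HFD and 187, 164 and 186 on LFD, a log2 fold change of 0.016 (SE 0.093, edgeR adjusted p = 0.991). Hk1 measured 34.7, 24.98 and 34.4 on HFD and 27.2, 27.3 and 31.1 on LFD (0.14, SE 0.16, edgeR adjusted p = 0.928). The diets overlapped for both. Fbp1, with 32 and 38 counts, was at -0.30 (SE 0.84, edgeR adjusted p = 0.975), and Pcx, with 15 and 23 counts, did not pass the filter.
The edgeR test called 0 of 4 members in morulae, where 0% of 13447 genes were called. Unadjusted p under 0.05 gave 1 member (Hk2) and 858 genes, DESeq2 called 0 members and 18 genes, and limma-voom 0 members and 0 genes (900 at an unadjusted p under 0.05). For Hk1 and Hk2, which passed the filter in both experiments, the diet effects on log2 CPM were 1.81 and -0.67 in sperm and 0.12 and -0.42 in morulae. Their difference was 1.69 for Hk1 (two-sided exact permutation test over 400 arrangements, p = 0.18, adjusted p = 0.36) and -0.25 for Hk2 (p = 0.615, adjusted p = 0.615 from the same exact test), where 0.005 is the smallest p the design allows.

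Lists of genes around these steps, chosen by function, were counted in the same fits. Of 9 gluconeogenic genes (Pck1, G6pc, Fbp1, Fbp2 and Pcx with Pck2, G6pc2, G6pc3 and the glucose-6-phosphate carrier Slc37a4), 8 were tested in the offspring tissues, and 5 were higher and 2 lower in liver than in gastrocnemius, with a median log2 fold change of 2.67 against 0.059 for all genes. The fold changes ran from that of Fbp1, the most positive, to that of Fbp2, the most negative, where 34.9% of all genes were called higher and 31.4% lower. Against eWAT, 5 were higher and 2 lower in liver (median 0.98 against -0.071), where 28.9% of all genes were called higher and 32.6% lower. Slc37a4 measured 207 ± 56.7 CPM (SD, n = 6) in liver, 53.0 ± 16.3 in gastrocnemius and 42.7 ± 56.0 in eWAT. G6pc3 was lower in liver (1.72 ± 0.77 CPM, SD, n = 6) than in gastrocnemius (12.03 ± 4.17 CPM; log2 fold change -2.88, SE 0.35, edgeR adjusted p = 1.50e-07), unlike G6pc.
For the phosphofructokinases and the enzymes that make or break fructose-2,6-bisphosphate, 6 of 7 were tested, and 1 was higher and 4 lower in liver than in gastrocnemius, from Pfkl, the liver phosphofructokinase (1.13, edgeR adjusted p = 0.0378), to Pfkm, the muscle form (-7.74, edgeR adjusted p = 2.23e-14). Genes that bring in substrates counted 9 higher and 6 lower of 17 tested, from Aqp9, which lets glycerol into hepatocytes (12.73, edgeR adjusted p = 5.92e-10), to Pdk4, a kinase that shuts pyruvate dehydrogenase (-7.55, edgeR adjusted p = 4.83e-13). Regulators of gluconeogenic genes, in a list that also holds the hormone targets Tat and Igfbp1, counted 10 higher and 1 lower of 15, from Tat, tyrosine aminotransferase, an enzyme of amino acid breakdown (12.23, edgeR adjusted p = 3.34e-08), to the coactivator Ppargc1a (-0.92, edgeR adjusted p = 0.0111). List medians were -3.29, 0.60 and 1.13 in this order, against 0.059 for all genes. Of all genes, 34.9% were called higher and 31.4% lower.
Against eWAT, with 28.9% of all genes called higher and 32.6% lower, liver had 14 of 17 substrate genes higher and 3 lower (median 2.19), from Slc2a2, the liver glucose transporter (7.24, edgeR adjusted p = 3.24e-13), to Aqp7, the glycerol channel of adipocytes (-8.60, edgeR adjusted p = 5.39e-13). Of 15 regulators 9 were higher and 3 lower in liver (median 1.90), of 6 phosphofructokinase genes 1 and 4 (median -1.66), and of 4 genes of glucose phosphorylation 1 and 2 (median -1.03). In eWAT over gastrocnemius, where the median of all genes was 0.35 and 41.1% were called higher and 26.3% lower, the substrate genes counted 6 higher and 11 lower (median -1.33), the regulators 4 and 3 (median 0.54), the phosphofructokinase genes 2 and 4 (median -1.22) and the gluconeogenic genes 4 and 3 (median 1.42).
In round spermatids over morula, with a median of all genes of 1.43 and 92.6% of them called (58.9% higher and 33.7% lower), the gluconeogenic genes counted 4 higher and 2 lower of 6 (median 2.86), glucose phosphorylation 3 and 2 of 5 (median 5.61), the phosphofructokinase genes 5 and 0 of 7 (median 0.81), substrate entry 7 and 9 of 17 (median -0.35) and the regulators 5 and 5 of 10 (median 0.55). In sperm over round spermatids, with a median of all genes of -0.91 and 26.2% called higher and 48.1% lower, substrate entry counted 11 higher and 5 lower of 17 (median 1.79), led by the glycerol kinase gene Gk (6.31, edgeR adjusted p = 3.17e-08), and the regulators 9 higher and 0 lower of 10 (median 2.10), led by the transcription factor Klf15 (5.84, edgeR adjusted p = 7.62e-08). The gluconeogenic genes counted 2 higher and 1 lower of 5 (median -0.11), glucose phosphorylation 2 and 2 of 5 (median -0.29) and the phosphofructokinase genes 1 and 4 of 7 (median -0.98). The epididymal markers of the sperm libraries stand beside these counts too, and their part was not tested.
Other paralogs of the members are given by their mean over 6 libraries. Pck2 measured 27.7 CPM in eWAT and 21.9 in sperm, and at most 2.78 elsewhere. Hk3 measured 1.44 CPM in round spermatids and 1.39 in eWAT, Hkdc1 1.41 in morulae, and G6pc2 at most 0.427 in any tissue.
By diet, 0 genes of any of the 5 lists passed the edgeR adjustment, in sperm or in morulae. At an unadjusted p under 0.05 edgeR gave 1 of 3 genes of glucose phosphorylation (Hk1) and 2 of 13 of substrate entry in sperm. The remaining lists, with 4, 5 and 9 genes tested, gave none there, and 1122 of all 8643 genes passed. In morulae it gave 1 of 5 gluconeogenic genes (G6pc3), 1 of 4 of glucose phosphorylation (Hk2) and 1 of 13 of substrate entry. The remaining lists, with 7 and 9 genes tested, gave none there, and 858 of all 13447 genes passed. G6pc3 in morulae stood at 5.60, 4.42 and 4.196 CPM of the library total in the libraries of HFD fathers and 8.28, 9.36 and 10.9 in those of LFD fathers, with no overlap, as for 11.9% of 13447 genes on that scale (log2 fold change -1.02, SE 0.28, unadjusted p = 0.00261 and adjusted p = 0.540 from edgeR).

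Spread among the 6 libraries of a tissue was compared with all genes of at least 10 counts on average. Genes were not matched for abundance, and counting error is larger for genes with few counts, so these ranks also carry the depth of a gene. Pck1 in liver had a coefficient of variation (CV) of 54.2%, above that of 94.5% of 8233 genes (median 26.1%), although counting error alone gives 1.39%. The liver values did not follow 1 order for all members. The library of 2036237 counts, lowest in Pck1 (624.2 CPM), had the highest Pcx (195 CPM) and a G6pc of 565 CPM, beside muscle markers at 85.0 CPM (13.03 to 28.0 in the others) and leukocyte markers at 143 CPM (57.2 to 95.3 in the others), whose part was not tested, while the library of 2279651 counts, highest in Pck1 (3564 CPM), had a G6pc of 658 CPM. G6pc (29.5%), Fbp1 (27.8%) and Pcx (23.4%) in liver lay near the median CV.
In gastrocnemius the CV of Pck1 was 135%, above that of 99.8% of 6821 genes, where counting error alone gives 24.4%. The library of 935991 counts held 52.4 CPM of Pck1 and 1194 CPM of adipocyte markers, and the one of 2749920 held 1.82 and 227. Both were the extremes on either measure, and the part of fat in the muscle samples was not tested. In eWAT the CV was 226% for Fbp2, 165% for Fbp1 and 109% for G6pc, above that of 95.3 to 98.7% of 11807 genes, each through 1 library. Counting error alone gives 18.5%, 12.2% and 27.7% in the same order. In round spermatids the CV was 2.71% for Fbp1, 5.15% for Hk1, 8.76% for Pcx and 16.5% for Hk2, where the median gene had 12.2%. In sperm Hk1 had a CV of 43.2%, below that of most genes (median 83.8%, 5.81% of genes lower), while Pcx had 129%. These values are on library totals with both diets pooled, and the spread of Hk1 was wider on other scales. Scaled by TMM it ran from 76.4 to 994 CPM, and over nuclear counts it held 1269 ± 709 CPM (SD, n = 6). Its rank among all genes was not taken on those scales. Fbp2 in morulae varied by 8.04% (median 21.5%).

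Genes whose mean levels over the 6 tissues lay closest to those of each member were found by Euclidean distance on log2(CPM + 1), among 24277 genes with at least 1 CPM in some tissue. Since 2 library kits contribute, nearness also reflects the kit. Closest to Pck1 were Trf (transferrin), Hp (haptoglobin) and Mgst1, at distances of 1.52 to 3.31. G6pc was closest to Pon1, Mug1 and Apoa4 (0.77 to 1.31), all products of hepatocytes. Fbp1 had more distant neighbours, Elovl2, Aox3 and Apoh (3.16 to 4.51). For Fbp2 they were 2310040G24Rik, Sms (spermine synthase) and Mospd1 (1.74 to 2.53), and for Pcx they were Pgls, Cpq and Ltbr (1.37 to 1.81). The list for Hk1 was Lrrc8b, Tent5c and Git1 (2.56 to 2.91) and that for Hk2 was Tmem65, Satb1 and Etl4 (2.23 to 2.91). By correlation over the 6 tissues in place of distance, G6pc and Pcx each kept 1 of the 3 neighbours (Pon1 and Pgls) and the other members none.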

How the data were processed

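RNA-seq count tables of cauda sperm, round spermatids, morulae, liver, eWAT and gastrocnemius (6 libraries each) were used. The authors used BBDuk for trimming, STAR for alignment (GRCm38) and featureCounts for gene counts; the deposited values are raw counts, used here as deposited, together with the exon lengths of the tables. A library's diet was read from its column name in sperm and morula, and 24 columns of the other tables were tied to a tissue only. For 3 morula samples a description names the other diet; title and treatment were followed. Libraries are named by their total count, since column names do not match the sample titles.

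Gene symbols were matched by Ensembl identifier (54723 of 54838 identifiers in most tables). Levels are CPM of the library total. Tests used edgeR 4.0.16 in R 4.3.3: filterByExpr with a minimum count of 10, TMM, quasi-likelihood test, two-sided, Benjamini-Hochberg adjustment over all genes tested, threshold 0.05, 1 fit per comparison and 1 for the 3 offspring tissues. The standard error of a fold change is its size divided by the root of the F statistic. Where nothing says that libraries came from separate animals, p-values measure the spread between libraries, which may be technical. The study's own methods name NOISeq, which is not used here. Alternatives tried: scaling by library totals, by DESeq2 size factors or by TMM on nuclear genes, then no filter, DESeq2 1.42.0, limma-voom (limma 3.58.1), leaving out each library, and, in sperm, a block by the number in the column name. Shares carry exact (Clopper-Pearson) 95% intervals, and a count of 0 allows 3 counts, both for counting error only. Log2 CPM in the test of the difference between diet effects used a prior count of 2. Plots were made in Python (matplotlib 3.10.9). The edgeR, DESeq2 and limma-voom tests were run on simulated counts for 1 comparison per fit, which was liver over gastrocnemius in the offspring tissues. The exact permutation test and Dixon's test (below) were not. Within a tissue, and within a diet group in sperm and morulae, no 2 libraries differed by as little as sampling noise (chi-square per degree of freedom at least 3.50). Libraries of different groups were not compared in this way.

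The members, gene lists and motifs were chosen with earlier results of these data known. The text names all 7 members, the paralogs Pck2, G6pc2, G6pc3, Hk3 and Hkdc1, some of the list genes with the largest or smallest change, and the 3 nearest genes per member. The largest and smallest changes are not named for every list and comparison. Counts of the glucose phosphorylation list are not given for liver or eWAT over gastrocnemius. Slc37a4 was added after its values were seen. One related gene is not reported here.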

Additional observations from a re-analysis of the deposited data

Results flagged for a closer look

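In 28 groups of 6 libraries, each 1 gene in 1 tissue, a library lay far from the other 5 by Dixon's test at its 95% critical value in 7. A rate of about 1 in 20 by chance holds for independent, normally distributed values. Here the genes share libraries and some counts are near 0, so no excess is read from these 7 groups. The eWAT library of 3512177 counts accounts for 4: Fbp1 at 79.4 CPM (0 to 18.9 in the others), Fbp2 at 47.3 (0 to 1.23), Hk1 at 25.1 (11.98 to 15.4) and Pcx, low at 88.5 (174 to 187). That library also held spermatid and spermatozoal markers at 62.4 and 69.2 CPM, the highest sum of Sertoli and Leydig markers (620 CPM, 176 to 368 in the others, though the same list sums to 1503 to 1919 CPM in liver) and the lowest sums of adipocyte markers (31770 CPM) and of muscle markers (40.7 CPM). The spermatid and spermatozoal sums are not separate observations, since both lists hold Prm1, Prm2 and Tnp2. The part of all these markers in its values was not tested. Another eWAT library, of 3757456 counts, held G6pc at 11.98 CPM (0.75 to 3.70 in the others), beside liver markers at 800 CPM. In gastrocnemius the library of 935991 counts held Pck1 at 52.4 CPM (1.82 to 16.3), beside the highest adipocyte markers, and Fbp1 stood out at 0.45 CPM in the library of 2217120, on 1 count.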

How the results depend on the processing

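The count of members called stayed within 1.5 times its main value under every alternative run for the 7 comparisons except 1: with library totals 1 member, Hk2, was called in sperm by diet, and none with TMM. With library totals the members called in liver over eWAT were 2 higher and 3 lower, in place of 4 and 2, and over all genes the calls were 1406 higher and 6995 lower in place of 3138 and 3542; for eWAT over gastrocnemius they were 7357 and 1227 in place of 4465 and 2853, and for sperm over round spermatids 1900 and 12347 in place of 4890 and 8972. By diet in sperm, 41 genes were called with no filter and 295 with DESeq2, in place of 0, and in morulae 63 and 18. Directions turned under these alternatives: with library totals Hk1 by diet in sperm (-0.024), Pcx in liver over eWAT (-0.23) and the difference between sperm and morula in the diet effect of Hk1 (-0.070), and with limma-voom G6pc in eWAT over gastrocnemius (-0.41). With 1 library left out, direction turned for Fbp1 (-1.62 to 0.16) and Fbp2 (-0.046 to 0.055) by diet in morulae, Fbp2 in liver over eWAT (-3.30 to 0.73), G6pc in eWAT over gastrocnemius (-0.67 to 0.38) and Pcx in sperm over round spermatids (-0.73 to 0.10), none of which passed the threshold in the main test; the cause was not tested. With a library left out, edgeR called 0 members in sperm and in morulae by diet, 6 to 7 in liver over gastrocnemius, 5 to 7 in liver over eWAT, 6 in eWAT over gastrocnemius, 5 in round spermatids over morula and 2 to 3 in sperm over round spermatids. Numbers in the sperm column names are shared by the diets for 2 numbers, and a replicate block by them called 0 members (log2 fold change of Hk2 -0.88, Hk1 2.21 and Pcx -2.43) with 1 residual degree of freedom; nothing says that these numbers pair mice. No paired analysis was possible for the other comparisons because their columns share no replicate number. The ratio of summed Fbp1 counts in eWAT over gastrocnemius ran from 83.9 to 266 with 1 eWAT library left out, an alternative chosen after seeing the data. Levels over nuclear counts moved by more than 1 SD for 16 of 42 values, upwards in each. Depth limits gastrocnemius most, where 1 library has 369772 counts, and sperm, where mtDNA takes 43.5 to 84.3% of counts.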
